A study of Mus musculus with 6 samples.

Results

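The insulin-like growth factor (IGF) axis was examined in mouse cells labelled as primary vascular smooth muscle cells, through 10 genes picked by symbol from the 44792 rows of the count table. All 10 were found: the ligand genes Igf1 and Igf2, the receptor genes Igf1r and Igf2r, and the binding protein genes Igfbp2, Igfbp3, Igfbp4, Igfbp5, Igfbp6 and Igfbp7. There were 3 libraries of Ncor1 knockout cells, given the genotype Ncor1-/-, and 3 of littermate control cells, given as wild type. All mice were of the C57BL/6 strain, the knockout mice carrying a deletion meant for smooth muscle, and the isolated cells were given 4-OHT (4-hydroxytamoxifen) to bring the deletion about. As the design text is worded, the control cells received 4-OHT too. The Cre driver, the age of the animals, the passage of the cells and whether the controls carried Cre or altered Ncor1 alleles are not stated in the labels. The product of Ncor1, nuclear receptor corepressor 1, silences genes by linking transcription factors, nuclear receptors among them, to a histone deacetylase. The design text names 3 mice per group and also technical replicates, so the spread between libraries that the p-values rest on may be technical.

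IGF1 and IGF2 are small secreted hormones that act mainly through the IGF1 receptor, a tyrosine kinase that signals to growth and survival through PI3 kinase and AKT and through the MAP kinases. The IGF2 receptor, which is also the cation-independent mannose 6-phosphate receptor, takes up and clears IGF2 and carries lysosomal enzymes. The binding proteins hold most of the IGF outside cells, lengthen its life and either block or deliver it, and proteases such as pappalysin-1 release it again. In smooth muscle cells IGF1 is known as a mitogen and survival factor and as a promoter of the contractile state.

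The libraries held 7125538 to 9579490 counts in the knockout group and 7231968 to 9005690 in the control group. Values per library are in CPM, counts scaled to library size, with TMM factors that correct for differences in library makeup. Levels of different genes are compared only in FPKM, which divides by gene length. Fold changes are knockout over control on the log2 scale with the standard error (SE), from edgeR's quasi-likelihood test, and adjusted p-values are Benjamini-Hochberg values over 13323 tested genes with a threshold of 0.05. Ncor1 stood at 99.3, 93.7 and 94.4 CPM in the knockout libraries, against 213, 223 and 230 CPM in the control libraries (log2 fold change -1.21, SE 0.0445, adjusted p = 1.08e-33). Of all tested genes 52.6% passed the threshold, 26.4% higher and 26.2% lower, with a median log2 fold change of -0.00. Scaling by library totals alone moved that median to 0.13 and gave 68.8% of calls as higher, against 50.1% on the TMM scale, and the FPKM values, which have no TMM factor, gave 70.1%.

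The labelled cell type was set beside markers of several cell types, which do not settle the makeup of the libraries. Smooth muscle markers were present in every library. Their summed level was 3913 to 4113 CPM in the knockout libraries and 11447 to 11651 CPM in the control libraries, and 9 of 10 fell, with log2 fold changes of -3.35 for Myh11, -1.81 for Tagln and -2.66 for Cnn1. Among all tested genes 26.4% were higher and 26.2% lower. Markers of endothelial cells were abundant in both groups, at 6389 to 6541 CPM in the knockout and 1883 to 1965 CPM in the control libraries. Of these, 13 of 14 rose (median log2 fold change 1.71), among them Plvap (2.61), Emcn (1.93) and Cdh5 (1.61). The exception, Vwf, named after its value was seen, fell by 0.57. The endothelial sum was above the smooth muscle sum in the knockout libraries and below it in the control libraries. By mean FPKM in the knockout libraries Emcn (896), Plvap (445) and Cdh5 (369) stood beside Tagln (621), Cnn1 (27.6) and Myh11 (4.70). In the control libraries these genes had 214, 66.3 and 110 beside 1982, 159 and 43.5. Of 13 macrophage and leukocyte markers with a row, 12 rose (median 3.38), among them C1qc (3.64), C1qb (3.87) and Laptm5 (3.69), and their sum was 574 to 629 CPM in the knockout and 49.1 to 69.3 CPM in the control libraries. Fibroblast markers went both ways, 3 of 6 tested higher and 3 lower (median -0.39), with Dcn (3.62) and Cd34 (1.78) higher and Col14a1 (-1.32) lower. Pdgfra (-1.29) and Col15a1 (-2.10), named after their values were seen, were the other lower ones. The sum of the list, 1135 to 1193 CPM in the knockout and 384 to 408 CPM in the control libraries, was mostly Cd34 and Dcn in the knockout libraries and mostly Cd34 in the control libraries. Mesothelial and epithelial markers summed to 351 to 385 CPM in the knockout and 115 to 120 CPM in the control libraries, which was nearly all Krt18 (336 to 371 CPM in the knockout and 109 to 115 CPM in the control libraries). Krt18 (1.63) and Krt19 (1.63) were higher, and the other 6 genes of that list, Msln, Upk3b, Wt1, Krt8, Epcam and Cdh1, were too low for the test, each under 1 CPM in every library. Schwann and neural markers summed to 39.6 to 47.4 CPM in the knockout and 185 to 198 CPM in the control libraries, nearly all of it Pmp22, with Pmp22 (-2.13) and S100b (-2.90) lower. Of the adipocyte markers Adipoq, Plin1, Cfd and Lep had 0 counts in every library, Fabp4 fell by 0.67 and Lpl had a log2 fold change of 0.26. In bulk RNA, fewer cells of a type and less RNA per cell cannot be told apart, and the part of these markers' cells in the IGF results was not tested.

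**Figure D1:**
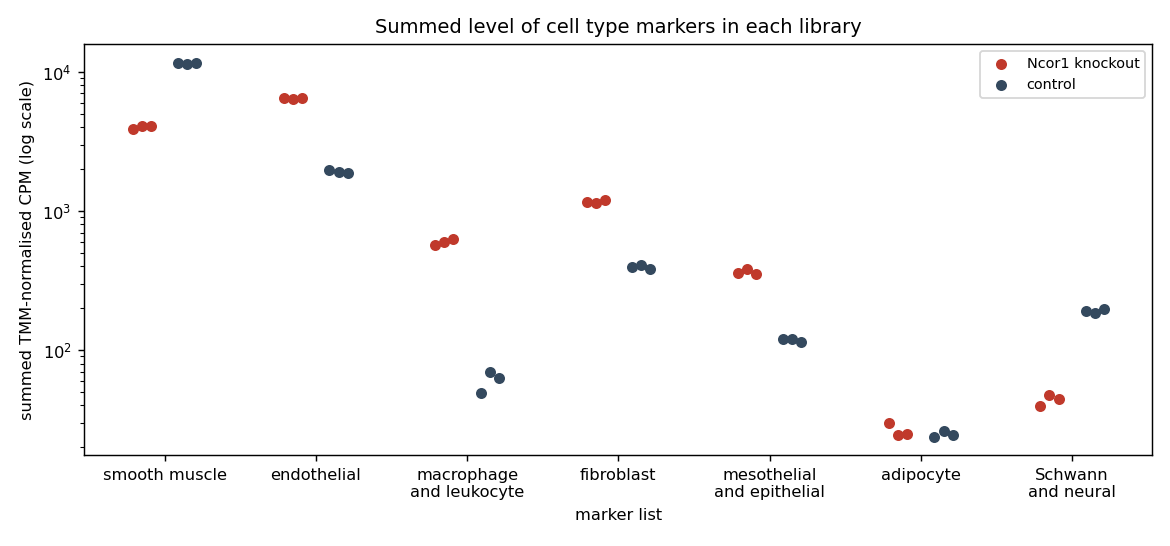
Summed TMM-normalised CPM of each marker list in the 3 Ncor1 knockout libraries (red, left) and the 3 control libraries (dark, right), on a log axis. Smooth muscle markers lie lower in the knockout libraries (3913 to 4113 CPM against 11447 to 11651 CPM), and endothelial (6389 to 6541 CPM against 1883 to 1965 CPM) and macrophage markers (574 to 629 CPM against 49.1 to 69.3 CPM) lie higher.

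Knockout libraries had lower transcript levels of the ligand Igf1 and of the binding proteins Igfbp2, Igfbp5 and Igfbp7, and a higher level of Igfbp3. The receptors differed by little and did not pass the test. Of the 8 members with enough counts to be tested, 5 passed: Igfbp3 was higher and Igf1, Igfbp2, Igfbp5 and Igfbp7 were lower. Igf1r, Igf2r and Igfbp4 did not pass, and Igf2 and Igfbp6 were too low in count for the test. A share of 62.5% called in 8 genes stands beside 52.6% of all tested genes, so the share called is not a result about these genes. Their median log2 fold change was -0.63, against -0.00 over all tested genes, and their changes ran between -2.92 and 1.61. Over the alternative processings that median ran between -0.89 and -0.27. Knockout and control libraries were fully separate in 6 of the 8 members, against 57.8% of all tested genes.

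**Figure D2:**
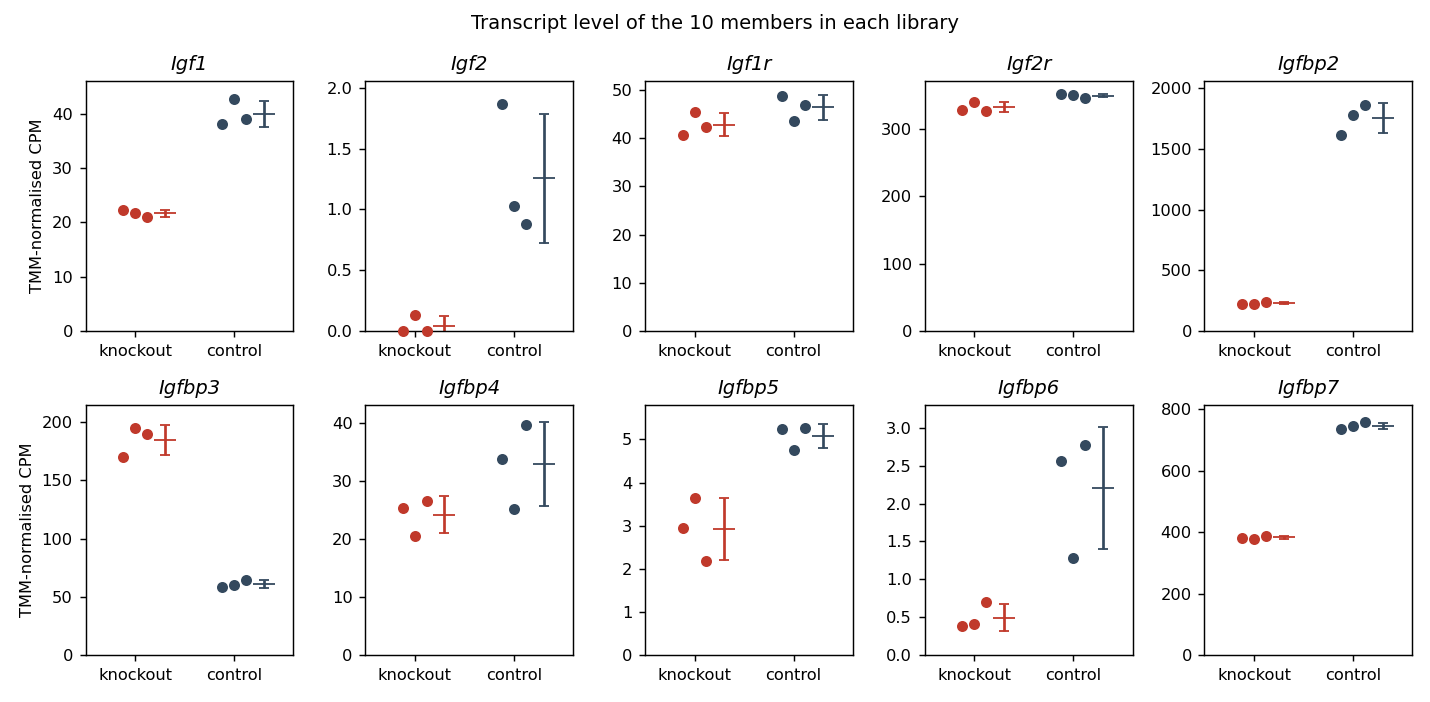
TMM-normalised CPM of each of the 10 members in the 3 Ncor1 knockout libraries (red, left) and the 3 control libraries (dark, right), with a separate axis from 0 for each gene; the bar beside the points is the mean with its SD. Igfbp2 lies at 226 to 241 CPM in the knockout and 1616 to 1862 CPM in the control libraries, Igfbp3 lies higher in the knockout, and the points of Igf1r and Igfbp4 overlap between groups.

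Of the ligands, Igf1 was the one with an appreciable level. It had 22.2, 21.8 and 21.0 CPM in the knockout libraries, against 38.2, 42.7 and 39.0 CPM in the control libraries. All knockout libraries lay below all control libraries, and Igf1 fell by 0.89 on the log2 scale (SE 0.0833, adjusted p = 2.01e-14), a 1.85-fold lower level. Per gene length this was 3.00 ± 0.0747 FPKM in the knockout and 5.05 ± 0.329 FPKM in the control libraries (SD, n = 3 each). By mean FPKM Igf1 lay below Igfbp2, Igfbp3, Igfbp4 and Igfbp7 and above Igfbp5 and Igfbp6 in both groups. Macrophages are known as makers of IGF1 in many tissues. Their summed markers stood at 574 to 629 CPM in the knockout libraries and at 49.1 to 69.3 CPM in the control libraries. The part of macrophages in the Igf1 level of either group was not tested.

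Igf2, the fetal ligand, which is imprinted and switched off in most tissues after birth, was close to the limit of detection. It had 0, 1 and 0 counts in the knockout libraries, against 16, 8 and 6 counts in the control libraries. Each control library exceeded 3 counts, the upper limit behind a count of 0, and no knockout library did. The summed counts gave a 32.7-fold lower level in the knockout with an exact 95% interval of 5.44 to 1336, which covers counting error only. Igf2 did not pass the filter on low counts. In the fit without that filter its log2 fold change was -4.56 (edgeR adjusted p = 3.6e-07), a size that depends on the prior count. Its 2 alternatives gave adjusted p-values of 0.00170 by DESeq2 and 0.0118 by log2(FPKM + 1) without filter. Igf2os, the transcript on the opposite strand of Igf2, had 0 counts in the knockout libraries and 2, 0 and 1 in the control libraries, and H19, its imprinted neighbour, had 2, 9 and 6 counts in the knockout libraries and 5, 5 and 3 in the control libraries. Without stated use of strand, reads of Igf2 and Igf2os cannot be told apart.

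Both receptors were measured at levels that differed little between the groups. Igf1r had 40.7, 45.4 and 42.3 CPM in the knockout libraries, against 48.7, 43.6 and 46.9 CPM in the control libraries. The groups overlapped, and the log2 fold change of -0.12 (SE 0.0702) did not pass the edgeR test (adjusted p = 0.151). The control-over-knockout ratio of its summed counts was 1.09, with a counting interval of 0.999 to 1.18. Igf2r had 329, 341 and 327 CPM in the knockout libraries, against 352, 351 and 347 CPM in the control libraries. These libraries did not overlap, but the difference was small (log2 fold change -0.07, SE 0.0353) and missed the edgeR threshold (adjusted p = 0.0700). Its summed counts gave a control-over-knockout ratio of 1.05, with a counting interval of 1.02 to 1.09. The sign of both receptors depended on scaling: with library totals alone the log2 fold changes were 0.01 for Igf1r and 0.06 for Igf2r, and in FPKM Igf2r averaged 38.9 ± 0.773 in the knockout and 37.3 ± 0.509 in the control libraries (SD, n = 3 each). Per gene length Igf2r was 10.8, 10.1 and 10.4 times as high as Igf1r in the knockout libraries and 9.69, 10.8 and 9.91 times in the control libraries. The Igf1 level relative to Igf1r, a ratio of FPKM that does not depend on library scaling, was 0.867, 0.764 and 0.787 in the knockout libraries and 1.25, 1.56 and 1.32 in the control libraries. By FPKM Igf1 thus lay below its receptor in the knockout and above it in the control libraries, which depends on the gene lengths used. In summed counts Igf1 was below Igf1r in both groups, at 547 against 1082 in the knockout and 927 against 1078 in the control libraries.

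Among the tested members, the binding proteins Igfbp2 and Igfbp3 had the largest changes. Igfbp2, a binding protein with an integrin-binding RGD motif that is abundant in fetal tissue, had 227, 226 and 241 CPM in the knockout libraries, against 1616, 1781 and 1862 CPM in the control libraries. The knockout libraries stood far below the control libraries, and Igfbp2 fell by 2.92 on the log2 scale (SE 0.0433, adjusted p = 4.50e-29), a 7.57-fold lower level. Only 79 of 13323 tested genes (0.593%) fell further. Beside this fall, the smooth muscle markers summed to 3913 to 4113 CPM in the knockout and 11447 to 11651 CPM in the control libraries, and their part in it was not tested. By mean FPKM Igfbp2 ranked 309 among the 23349 genes with any count in the knockout libraries and 24 in the control libraries.

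Igfbp7, a secreted protein of the vessel wall with low affinity for IGF that is also known as angiomodulin, had 383, 378 and 389 CPM in the knockout libraries, against 737, 744 and 757 CPM in the control libraries. The groups were far apart compared with the spread within each, and Igfbp7 fell by 0.96 on the log2 scale (SE 0.0331, adjusted p = 3.81e-35), which is 1.95-fold. It ranked 141 by mean FPKM in the knockout and 74 in the control libraries.

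Igfbp3, which carries most IGF in serum and can slow growth without IGF, was the member that rose. It had 170, 195 and 190 CPM in the knockout libraries, against 58.1, 60.0 and 64.3 CPM in the control libraries. Every knockout library lay above every control library, at a 3.05-fold higher level (log2 fold change 1.61, SE 0.0526, adjusted p = 7.48e-35), and 493 of the tested genes (3.70%) rose further. Its rank by mean FPKM was 849 in the knockout and 2807 in the control libraries. Beside this rise, the endothelial markers summed to 6389 to 6541 CPM in the knockout and 1883 to 1965 CPM in the control libraries, and their part in it was not tested. In the RefSeq gene order of assembly GRCm38.p6 Igfbp3 lies next to Igfbp1, which had 1 count in each knockout library and 1, 2 and 1 in the control libraries.

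Igfbp5 and Igfbp6 were low in both groups. Igfbp5, a binding protein that attaches to extracellular matrix and the neighbour of Igfbp2 in the RefSeq gene order, had 2.94, 3.63 and 2.19 CPM in the knockout libraries, against 5.24, 4.76 and 5.26 CPM in the control libraries. The groups did not overlap and it fell by 0.83 on the log2 scale (SE 0.225, adjusted p = 0.00131). Igfbp6, which prefers IGF2 to IGF1, had 3, 3 and 7 counts in the knockout libraries, against 22, 10 and 19 counts in the control libraries. No knockout library reached a control library in CPM (0.383 to 0.696 against 1.29 to 2.78), and the summed counts were 4.28-fold lower with an exact 95% interval of 2.30 to 8.58. Igfbp6 did not pass the filter on low counts, and without it the log2 fold change was -2.07 (SE 0.432, edgeR adjusted p = 1.10e-05; 3.35e-06 to 0.0129 over its alternatives).

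Igfbp4, a binding protein known as an inhibitor of IGF action and the substrate of pappalysin-1, varied between libraries of the same group. It had 25.4, 20.6 and 26.6 CPM in the knockout libraries, against 33.9, 25.2 and 39.6 CPM in the control libraries. Control replicate 2 lay inside the knockout range, and the log2 fold change of -0.42 (SE 0.162) missed the edgeR threshold (adjusted p = 0.0566). Without control replicate 2 it was -0.58 (adjusted p = 3.76e-07) and without control replicate 3 it was -0.28 (adjusted p = 0.0445), and over all its alternatives the adjusted p ran between 3.76e-07 and 0.290.

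**Figure D3:**
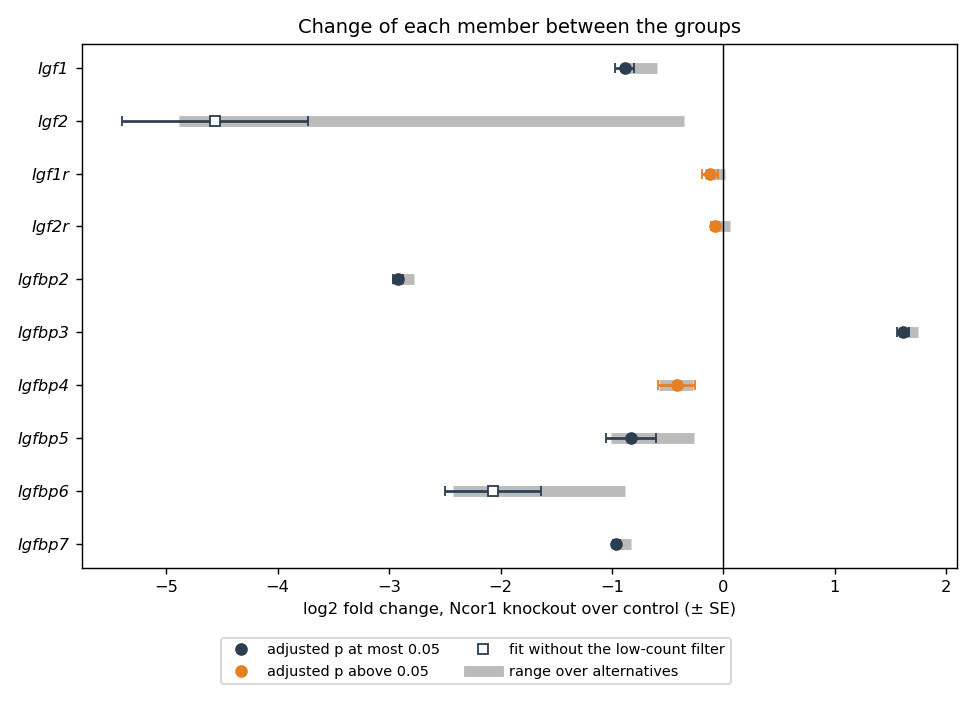
Log2 fold change of each member, Ncor1 knockout over control, with bars for ± SE and grey bars for the range over the alternative processings. Igfbp2 (-2.92) and Igfbp3 (1.61) lie far from 0 under each alternative, Igf1r, Igf2r and Igfbp4 (orange) did not pass the test, and Igf2 and Igfbp6 (open squares) come from the fit without the low-count filter.

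Summed over the 6 binding proteins, the transcript level per gene length was lower and differently made up in the knockout. The sum was 592, 597 and 623 FPKM in the knockout libraries, against 1780, 1908 and 1960 FPKM in the control libraries, a 3.12-fold lower mean. Igfbp2 made up 30.0%, 29.7% and 30.5% of that sum in the knockout libraries, against 65.1%, 67.3% and 67.5% in the control libraries. Igfbp7 made up 55.5%, 54.5% and 54.1% in the knockout libraries, against 32.6%, 30.8% and 30.1% in the control libraries, although its own level was lower. The leading binding protein transcript was therefore Igfbp7 in the knockout libraries, at 1.82 times the mean FPKM of Igfbp2, and Igfbp2 in the control libraries, at 2.14 times the mean FPKM of Igfbp7.

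The share of Igfbp3 was 12.2%, 13.9% and 13.1% in the knockout libraries, against 1.27%, 1.23% and 1.27% in the control libraries. The ratio of Igfbp3 to Igfbp2 in FPKM was 0.408, 0.468 and 0.428 in the knockout libraries, against 0.0195, 0.0183 and 0.0188 in the control libraries. Igfbp4 held 2.02% ± 0.246 of the sum in the knockout and 0.805% ± 0.168 in the control libraries (SD, n = 3 each), and Igfbp5 and Igfbp6 together less than any other member. The summed binding protein level was 193, 198 and 213 times that of Igf1 in the knockout libraries and 368, 351 and 400 times in the control libraries. The summed binding protein transcripts thus exceeded those of Igf1 widely in both groups, by a smaller factor in the knockout. These shares and ratios are descriptions of the libraries, with no test.

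**Figure D4:**
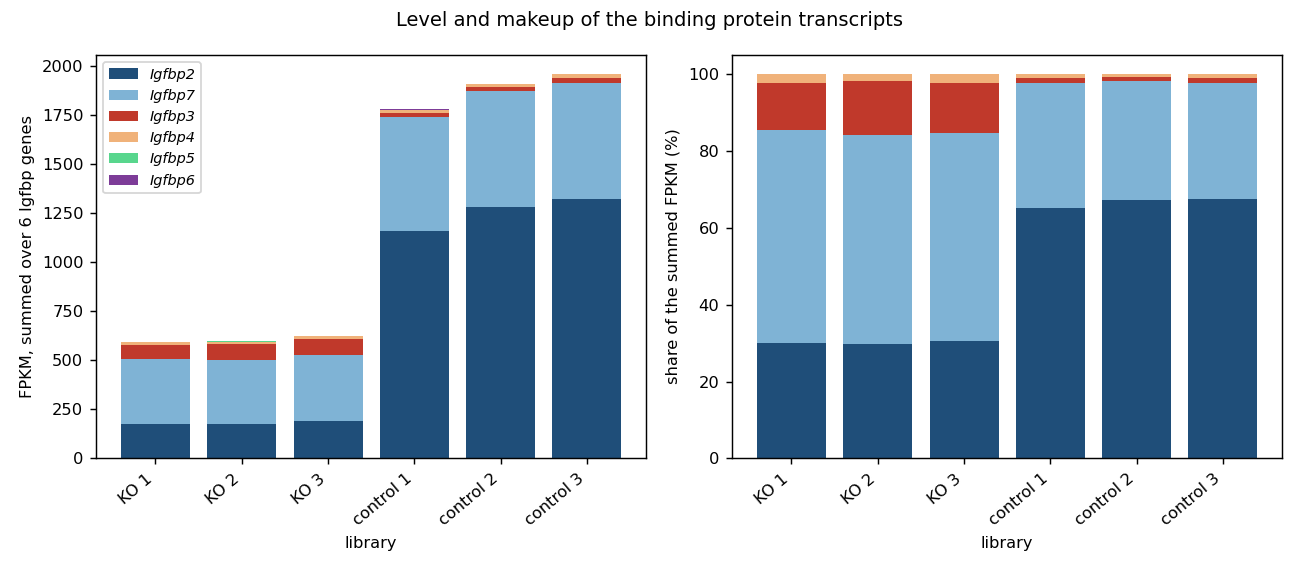
FPKM of the 6 binding protein genes stacked for each library (left) and the same as a percentage of their sum (right), for the 3 Ncor1 knockout libraries (KO) and the 3 control libraries. The sum is 592 to 623 FPKM in the knockout and 1780 to 1960 FPKM in the control libraries; Igfbp7 is the largest part in the knockout and Igfbp2 in the control libraries.

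Promoter sequences of all 10 members were found in RefSeq (build GRCm38.p6), 14 start sites in all. The 250 bases before the first listed start of the member that rose and of the 3 with the smallest adjusted p among those that fell are shown because they are the genes the comparison turns on. Capitals mark matches, on either strand, to the nuclear receptor half-site AGGTCA or the AP-1 motif TGANTCA; the FOXO motif GTAAACA was also searched and matched none of the 14. The motifs do not overlap each other in these windows.
Igfbp2, chr1:72824230-72824479, plus strand: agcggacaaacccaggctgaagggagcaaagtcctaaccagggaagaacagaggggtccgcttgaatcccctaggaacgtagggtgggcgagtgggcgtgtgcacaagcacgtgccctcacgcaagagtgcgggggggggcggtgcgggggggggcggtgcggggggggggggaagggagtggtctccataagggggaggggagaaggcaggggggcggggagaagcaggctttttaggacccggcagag
Igfbp7, chr5:77408046-77408295, minus strand: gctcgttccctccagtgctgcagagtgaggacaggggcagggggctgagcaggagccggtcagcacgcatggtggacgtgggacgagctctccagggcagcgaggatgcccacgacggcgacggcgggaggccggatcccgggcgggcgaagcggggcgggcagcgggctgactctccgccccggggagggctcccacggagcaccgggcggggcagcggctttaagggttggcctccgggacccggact
Igfbp3, chr11:7213924-7214173, minus strand: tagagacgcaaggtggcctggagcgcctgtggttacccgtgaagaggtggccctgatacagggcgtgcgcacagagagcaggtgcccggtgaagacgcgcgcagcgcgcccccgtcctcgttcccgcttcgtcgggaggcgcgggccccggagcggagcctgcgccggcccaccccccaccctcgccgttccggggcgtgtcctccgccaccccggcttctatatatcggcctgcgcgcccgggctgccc
Igf1, chr10:87860861-87861110, plus strand: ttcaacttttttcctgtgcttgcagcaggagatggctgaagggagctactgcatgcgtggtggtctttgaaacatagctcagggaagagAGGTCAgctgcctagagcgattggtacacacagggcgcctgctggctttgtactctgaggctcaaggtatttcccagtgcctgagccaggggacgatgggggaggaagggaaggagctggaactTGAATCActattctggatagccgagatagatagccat

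The windows of Igfbp2, Igfbp7 and Igfbp3 held none of the motifs, and that of Igf1 held a half-site 161 bases and an AP-1 match 37 bases before the start. A half-site was also present at Igf1r, Igf2r and the first Igf2 start, so in 4 of the 14 windows, against 14.0% of 32851 mouse promoters of the same length. The AP-1 motif was present in 2 of the 14, at Igf1 and the second Igfbp2 start, against 6.75% of all, and the FOXO motif in 3.17% of all. The windows were rich in G and C at Igfbp2 (67.2%), Igfbp7 (74.0%) and Igfbp3 (73.2%), against 52.8% at Igf1 and a median of 52.4% over all promoters. A match is a string of letters in a short window and no evidence of binding.

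The other genes of the pathway were taken from 6 lists. Of the insulin and IGF family beside the members, the insulin receptor gene Insr was the gene with enough counts for the test. It had 76.2, 75.7 and 67.7 CPM in the knockout libraries, against 83.2, 78.6 and 79.2 CPM in the control libraries (log2 fold change -0.14, SE 0.0570, adjusted p = 0.0299). This call was lost with library totals alone (-0.01, adjusted p = 0.900). Leaving out control replicate 1 gave an adjusted p of 0.145 and leaving out knockout replicate 3 gave 0.319, and over its alternatives the adjusted p ran between 0.0184 and 0.983. The insulin genes Ins1 and Ins2 had 0 counts in every library, and the insulin receptor-related gene Insrr had 2, 2 and 5 counts in the knockout libraries and 0 in each control library. Igfbpl1 had 0, 2 and 2 counts in the knockout libraries and 7, 4 and 2 in the control libraries, and Igfals, the acid-labile subunit of the serum IGF complex, had 0 counts in each knockout library and 1, 0 and 2 in the control libraries.

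Among proteases that cleave binding proteins and their inhibitors, all 7 tested genes passed, 3 higher and 4 lower. Of all tested genes 52.6% passed, 26.4% higher and 26.2% lower. The median log2 fold change of the list was -0.93, and -0.37 without the filter on low counts. Pappa, which encodes pappalysin-1, had 15.4, 15.3 and 11.7 CPM in the knockout libraries, against 55.3, 51.1 and 55.6 CPM in the control libraries (-1.95, SE 0.0892, adjusted p = 1.06e-28). Htra1, a secreted serine protease, had 47.2, 48.3 and 52.1 CPM in the knockout libraries, against 164, 167 and 182 CPM in the control libraries (-1.79, SE 0.0536, adjusted p = 1.69e-38). Knockout and control libraries were fully separate for both genes, at a 3.86-fold lower level of Pappa and a 3.46-fold lower level of Htra1. The metalloprotease gene Adam12 fell by 0.93, and Ctsd (0.23), the lysosomal cathepsin D, and Adam9 (0.18) rose. The stanniocalcins, inhibitors of pappalysin-1, went opposite ways at low levels: Stc2 fell by 1.59, to 1.10 ± 0.0873 CPM in the knockout against 3.36 ± 0.238 CPM in the control libraries (SD, n = 3 each). Stc1, named after its value was seen, rose by 1.59 on the log2 scale, with 2.53 ± 0.907 CPM in the knockout and 0.815 ± 0.0848 CPM in the control libraries (SD, n = 3 each; adjusted p = 1.67e-04).

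Downstream of the receptors, 10 of 35 tested signalling genes were higher and 15 lower, and 10 did not pass (median log2 fold change -0.08). Among all tested genes 26.4% were higher and 26.2% lower. Components of the PI3 kinase branch went both ways. Pik3cb (0.37, SE 0.0656) and Akt1 (0.13, SE 0.0380), named after their values were seen, were higher. Akt1 averaged 414 CPM in the knockout and 379 CPM in the control libraries, with overlap between the groups. The regulatory subunits Pik3r1 and Pik3r2 fell by 0.61 (SE 0.0469) and 0.97 (SE 0.0705), the docking protein gene Gab1 by 0.95 (SE 0.0945), and Akt2, the AKT kinase known for its role in insulin action, by 0.87 (SE 0.0551). Akt2 had 57.7, 57.2 and 55.1 CPM in the knockout libraries, against 105, 101 and 105 CPM in the control libraries, with no overlap. Nedd4, a ubiquitin ligase that acts on the IGF1 receptor pathway, fell by 0.47. Mdm2, a ubiquitin ligase of p53 that also acts on the IGF1 receptor, rose most in this list, with 225 ± 4.65 CPM in the knockout and 112 ± 7.11 CPM in the control libraries (1.00, SE 0.0441, adjusted p = 1.81e-29; SD, n = 3 each). Grb14, an inhibitory adaptor of the insulin receptor named after its value was seen, had the lowest value in the list (-1.90). With library totals alone 16 signalling genes were higher, by FPKM 8 were lower, and the median turned to 0.05 in both.

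In the list for the Igf2 locus and the control of its messenger RNA, 4 of 6 tested genes were higher and 1 lower, against 26.4% higher and 26.2% lower among all tested genes. The median log2 fold change was 0.62, but 0.33 without the filter on low counts, 0.35 by DESeq2, 0.05 by log2(FPKM + 1) without filter and 1.01 by log2(FPKM + 0.1). Hmga2, a chromatin protein known in mouse to act on Igf2bp2, had 320, 304 and 300.1 CPM in the knockout libraries, against 91.3, 93.3 and 88.6 CPM in the control libraries (log2 fold change 1.76, SE 0.0430, adjusted p = 2.77e-43). Igf2bp2, an RNA-binding protein of Igf2 messenger RNA, rose by 0.40 (SE 0.0563), and Plagl1, an imprinted transcription factor that acts on the Igf2 and H19 region in mouse, by 0.99 (SE 0.0837). Airn, the antisense RNA that silences the paternal Igf2r allele in mouse, rose by 0.85 (SE 0.203), with 6.38, 7.40 and 6.56 CPM in the knockout libraries and 3.03, 5.28 and 2.92 CPM in the control libraries; it overlaps Igf2r, and reads of the pair cannot be told apart without strand. Igf2bp3 was low and had a log2 fold change of -0.59 (adjusted p = 0.0282). That call was lost with library totals alone, on leaving out control replicate 1 (adjusted p = 0.114) or 2 (0.0738), and on leaving out knockout replicate 2 (0.0630) or 3 (0.104), within a range of 0.0204 to 0.212 over its alternatives.

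In the growth hormone branch, which drives Igf1 transcription in liver and other tissues, 4 of 6 tested genes were higher and 1 lower. Among all tested genes 26.4% were higher and 26.2% lower. The median log2 fold change of the list was 0.22 on the TMM scale, 0.35 with library totals alone and 0.35 by log2(FPKM + 0.1). Gh, the growth hormone gene, named after its value was seen, had 0 counts in every library. The growth hormone receptor gene Ghr had 537, 552 and 545 CPM in the knockout libraries, against 304, 314 and 289 CPM in the control libraries. The groups did not overlap and the level was 1.80-fold higher (log2 fold change 0.85, SE 0.0354, adjusted p = 9.67e-31). Igf1 was 1.85-fold lower in the same libraries, and a link between Ghr and Igf1 was not tested. Stat5a fell by 0.65 (SE 0.0948) and Stat5b rose by 0.20 (SE 0.0621); both encode transcription factors activated by the receptor. The feedback inhibitor genes Socs2 (0.41, SE 0.0853) and Cish (0.24, SE 0.0890) rose. The call of Cish was lost when control replicate 1 (adjusted p = 0.0663) or knockout replicate 2 (adjusted p = 0.267) was left out, within a range of 1.72e-04 to 0.267 over its alternatives. By the DESeq2 test Stat5b (adjusted p = 0.0587) and Cish (adjusted p = 0.132) did not pass, and 2 genes of this list were higher.

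For the mannose 6-phosphate pathway and cell surface partners of IGF2R and the binding proteins, 5 of 11 tested genes were higher and 6 lower. Among all tested genes 26.4% were higher and 26.2% lower. The median log2 fold change of the list was -0.09, and 0.04 with library totals alone. M6pr, the smaller mannose 6-phosphate receptor, rose by 0.46 (SE 0.0440), and Plaur, the urokinase receptor, which binds IGF2R, by 0.63 (SE 0.0479). Lrp1, a large endocytic receptor reported to bind IGFBP3, had 1004, 1000.0 and 898 CPM in the knockout libraries, against 2202, 2084 and 2319 CPM in the control libraries, 2.28-fold lower in the knockout (-1.19, SE 0.0423, adjusted p = 1.50e-15). The integrin subunits Itga5 (0.32) and Itgb3 (0.24) rose. The other integrin subunits of the list, Itgav (-0.31) and Itgb1 (-0.09), named after their values were seen, were lower. Gnptab, an enzyme that makes the mannose 6-phosphate tag, fell by 0.26 (SE 0.0553), with an adjusted p of 0.142 to 0.201 in the FPKM fits. By FPKM 2 genes of this list were lower with the filter on low values.

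**Figure D5:**
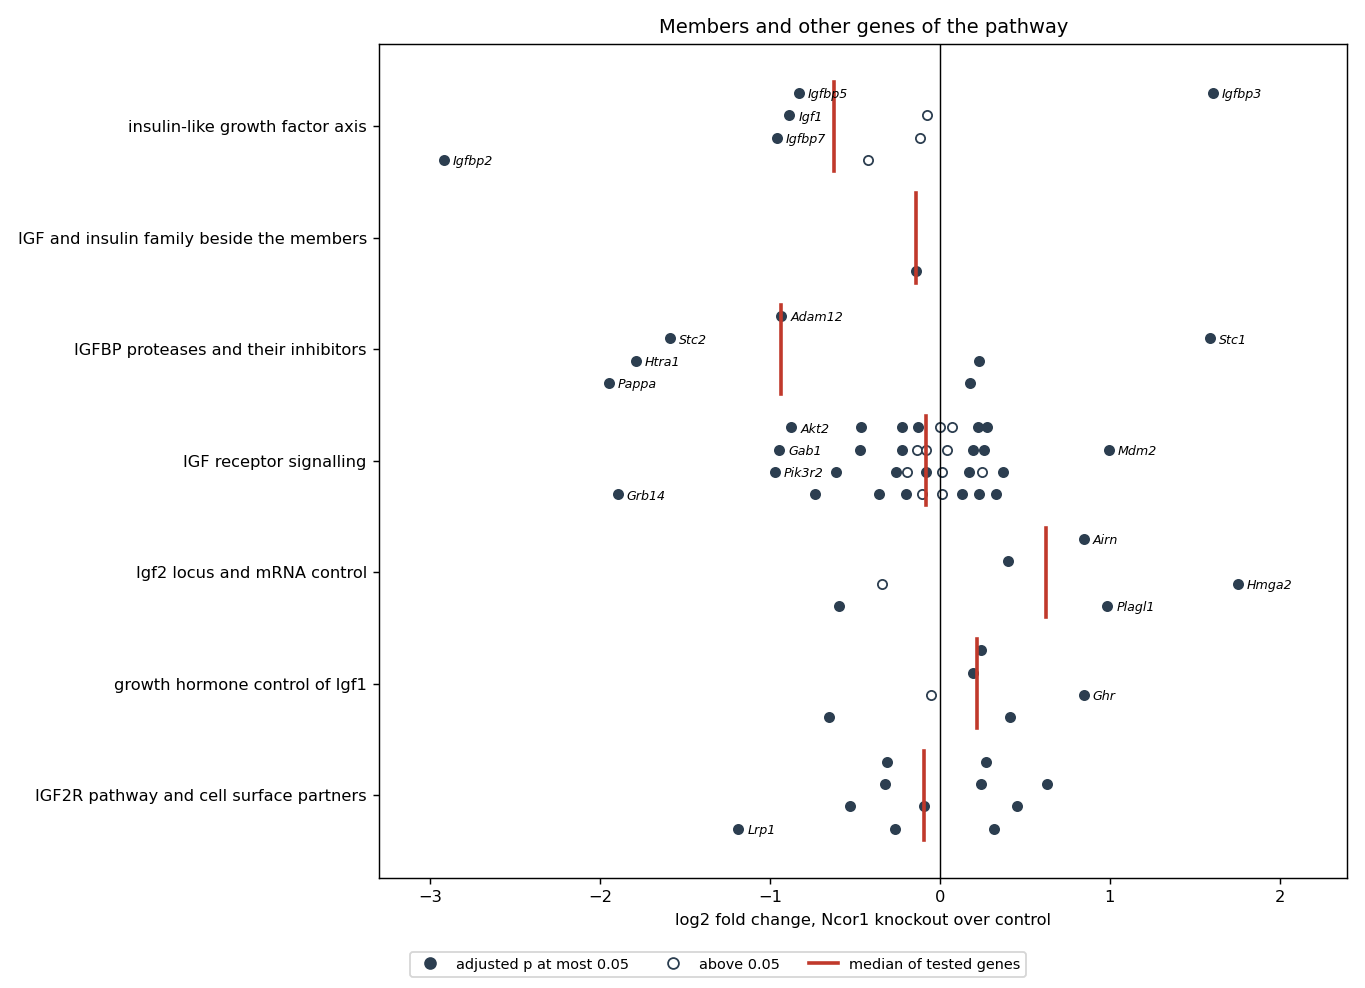
Log2 fold change, Ncor1 knockout over control, of every tested member and of every tested gene in the 6 other lists; filled points passed the edgeR test, red lines are medians, and genes at least 0.8 from 0 are named. The medians are -0.63 for the members, -0.93 for the proteases and their inhibitors, -0.08 for receptor signalling and 0.62 for the Igf2 locus and messenger RNA list.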

How the data were processed

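RNA-seq of 6 libraries, 3 of Ncor1 knockout and 3 of control cells, was grouped by the sample titles. RNA was extracted with Trizol, per the labels' protocols, and the submitters' processing notes list HISAT2 2.0 and the build mm9. Read counter, annotation and strand setting: not given in the sources used here. In the authors' deposited count table each gene symbol has whole-number counts. The FPKM table deposited by the authors equals count over library total and gene length, within a relative spread of 1.05e-05 over 15683 genes, so it holds no further normalization.

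From the counts, 13323 of 23349 genes with any count passed filterByExpr and entered edgeR 4.0.16 in R 4.3.3 (TMM, robust quasi-likelihood, two-sided, no replicate term). SE is the log2 fold change over the square root of F. Exact 95% intervals of ratios come from summed counts and cover counting error only; an upper limit of 3 counts behind a count of 0 is 0.298 to 0.439 CPM. The pipeline was tested on simulated data.

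The members and lists were chosen with earlier results of these data known. Named genes were the members, Ncor1, the insulin family list, and from each other list the called genes with the smallest adjusted p, up to 6 in pathway and 3 in marker lists. A macrophage marker, Adgre1, matched no symbol and was not used here. Counts within groups differed by more than sampling noise (chi-square per degree of freedom 1.38 to 1.84), so no library was taken as a copy of another and all were kept. These values cannot tell technical replicates from separate mice. Near-identical copies and overlapping genes could not be separated. Alternatives were other scaling factors, filters and tests (DESeq2 1.42.0, limma 3.58.1), FPKM on the log2(FPKM + 1) and log2(FPKM + 0.1) scales, each library left out, and the replicate number as a block.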

Additional observations from a re-analysis of the deposited data

How the results depend on the processing

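Of 471 values recomputed under the alternatives, 414 kept their direction and side of the threshold or stayed close to the reported value. Igf1, Igfbp2, Igfbp3 and Igfbp7 passed in all 17 alternatives each, with log2 fold changes of -0.92 to -0.60, -2.98 to -2.78, 1.57 to 1.74 and -0.97 to -0.83. The sign of Igf1r turned with library totals alone (0.0141), in FPKM at a pseudocount of 1 (0.0134 with filter and 0.0134 without) and at 0.1 (0.0165), and that of Igf2r in the same settings (0.0589, 0.0579, 0.0579 and 0.0592), none past the threshold. TMM factors were 1.04 to 1.05 in knockout and 0.948 to 0.961 in control libraries. Igfbp4, not called in the reported fit, passed with upper-quartile factors (-0.43), without filter (-0.42), with the DESeq2 test (-0.43) and limma-voom (-0.40), and its values without single libraries ran between -0.58 and -0.28; the cause was not tested. The call of Igfbp5 was lost by log2(FPKM + 1) without filter (-0.27), a scale that understates changes of low genes. Without filter and by DESeq2 7 members were lower, as Igf2 and Igfbp6 then entered the test and Igfbp4 passed.

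Over all genes, 5305 were higher with library totals alone, and by FPKM 2004, 1987 and 2130 were lower (pseudocount 1, pseudocount 0.1, and pseudocount 1 without filter). In the insulin family list 1 gene was higher without filter, and the lower count, 1 in the reported fit, was 0 with library totals alone, by DESeq2 and in all 3 FPKM fits, and 0 to 1 without single libraries. In receptor signalling 16 were higher with library totals and 8 lower in all 3 FPKM fits. In the Igf2 list 0 were lower with library totals, by DESeq2 and in all 3 FPKM fits, and 0 to 1 without single libraries. By DESeq2 2 growth hormone branch genes were higher. In the IGF2R list 2, 2 and 1 were lower in the FPKM fits.

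The binding protein sum in CPM, which is not per length, was 827 in the knockout and 2600 in the control libraries, and the shares were then 28.0% in the knockout for Igfbp2, 22.3% and 2.34% for Igfbp3 in knockout and control, 2.93% and 1.27% for Igfbp4, 0.354% and 0.196% for Igfbp5, and 46.4% and 28.7% for Igfbp7.

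The replicate numbers were not taken to pair the samples, and correlations this near 0 cannot settle whether they do. Deviations from the group means of same-numbered libraries correlated at 0.00398, 0.0159 and 0.0232 across genes. Knockout replicate 1 correlated best with control replicate 2 (0.00664), and knockout replicates 2 and 3 correlated best with their same-numbered controls. With the replicate block Igfbp4 passed (-0.44, adjusted p = 1.38e-05), 3509 genes were higher and 3486 lower against 3512 and 3492, and no other member changed its call. Depth limits Igf2, Igfbp6 and Igfbp5, at 1 to 118 summed counts per group.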
